A study of Mus musculus with 9 samples.

Results

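The 52 genes described here are the mouse PRAME-like and Oog leucine-rich genes, taken as every row of the deposited expression table whose symbol starts with Prame, Pramel or Oog, out of 19359 genes in all. Of these, 47 are named Pramel, 4 are the oogenesins Oog1 to Oog4, and 1 is Pramex1. Polyadenylated RNA was measured in whole mouse embryos at 34 h post fertilization, and each of the 9 libraries was a pool of 3 embryos. LPN embryos (3 libraries) had undergone the later pronuclear transfer, EPN embryos (3 libraries) the early one, and SPN embryos (3 libraries), the controls, a sham transfer. The labels give no other treatment or genotype that separates the groups.

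Oocytes in all groups came from B6D2F1 females, 8 to 12 weeks of age, primed with PMSG, and MII eggs from females that also received hCG. The labels also describe selective enucleation of germinal vesicle oocytes, which gave cytoplasts with strongly abnormal properties, but do not say which groups received pronuclei or cytoplasm from these oocytes. The groups are therefore described here only by the timing of the transfer. Nothing in the labels says that the pools came from separate days or matings, so the p-values given here speak only of how far these pools differed among themselves.

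PRAME-like proteins are built of leucine-rich repeats, and several of them act as substrate receptors of cullin-2 ubiquitin ligases, which mark chosen proteins for degradation. The family has expanded into tandem arrays in the mouse genome and is known for expression in testis, oocytes and the early embryo. Around the 2-cell stage, RNA stored in the oocyte is being cleared while the embryonic genome starts to be transcribed, so both stored and newly made transcripts are present in one embryo.

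Members were sorted by what the family is known for, as background. Oog1, Oog2, Oog3, Oog4 and Pramel15 were listed as oocyte-stored. Another 10 were listed as 2-cell expressed through older names in the RefSeq gene table, among them Pramel24 (formerly Gm13078), Pramel29 (C87977), Pramel32 (C87499) and Pramel51 (Gm10436). Pramel4, Pramel5, Pramel6 and Pramel7 are known from pluripotent cells and the inner cell mass, 4 members were listed with the testis, and 29 were left unclassified. A single stage cannot show which RNA was stored and which was new, and in a pooled library less RNA per cell and fewer cells that carry it cannot be told apart.

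The members lie in a few clusters. By the RefSeq table, 28 are on chromosome 4, 18 on chromosome 5, 2 on chromosome 12 (Oog1 and Pramel51), 2 on chromosome 2 (Pramel6 and Pramel7) and 1 on the X chromosome (Pramel3). The table held 51 of the 52 members, all but Pramex1.

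Values are CPM, in which the reads of a gene are divided by the total of its library, from totals of 7611781 to 15559218 reads. A single read was worth 0.0643 to 0.131 CPM. All 6 markers of oocytes and early embryos and all 5 markers of 2-cell embryos were present. The 2-cell markers summed to 2652 to 3969 CPM in LPN, 1827 to 2965 CPM in EPN and 1011 to 1858 CPM in SPN. Of other cell types, the 11 cumulus and granulosa markers with values summed to 135 to 201 CPM in LPN, 186 to 214 CPM in EPN and 173 to 183 CPM in SPN, and Foxl2 and Cyp11a1 stayed under 1 CPM everywhere. The haemoglobin genes Hba-a1 and Hba-a2, 2 of the 6 blood markers, summed to 9.32 to 26.1 CPM in LPN, 33.9 to 79.8 CPM in EPN and 36.0 to 100.4 CPM in SPN. The 4 sperm markers with values summed to 3.55 to 6.62 CPM in LPN, 1.80 to 6.95 CPM in EPN and 6.02 to 12.3 CPM in SPN. A sum does not show which genes carried it, so the cumulus and granulosa sum is by itself no measure of such cells. The part of the differences in marker sums in the results below was not tested.

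Oog3, an oogenesin encoded on chromosome 4, took more reads than any other member. It had 6209.9, 6122 and 3565 CPM in LPN, 8429, 6719 and 6911 CPM in EPN, and 10719.7, 5987 and 5388 CPM in SPN. By CPM it ranked between 4 and 11 among all genes of a library and took 34.8% to 58.6% of all reads of the members. Per length it also came first, at 3578 CPM per kb of transcript over the 9 libraries. Pramel25 followed at 609.9, Pramel51 at 418, Pramel24 at 257 and Pramel29 at 207 CPM per kb, with transcript lengths from GENCODE M21 for the 40 members that could be matched. SPN library A was far above both other SPN libraries for Oog3. The SPN range overlapped those of LPN and EPN, while every LPN library lay below every EPN library. The difference on the log2(CPM + 1) scale was -0.45 for LPN against SPN (SE 0.31, limma adjusted p = 0.356). For EPN against SPN it was 0.06 (SE 0.31, limma adjusted p = 0.966). For LPN against EPN it was -0.51 (SE 0.31, limma adjusted p = 0.369).

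Most members were readily measured. A mean of at least 100 CPM over the 9 libraries was reached by 18 members, and 37 reached at least 10 CPM. At least 1 CPM in at least 3 libraries, the filter for testing, was met by 45 members. The 7 that missed it (Pramel36, Pramel37, Pramel39, Pramel43, Pramel45, Pramel49 and Pramel50) all lie in the chromosome 5 cluster.

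All 52 members together summed to 12783, 12523 and 10239 CPM in LPN, 14592, 13021 and 12515 CPM in EPN, and 18303, 13459 and 13141 CPM in SPN. The LPN and SPN ranges did not overlap, and SPN A was the highest library. Without Oog3 the sums were 6574, 6401 and 6675 CPM in LPN, 6163, 6303 and 5605 CPM in EPN, and 7583, 7473 and 7753 CPM in SPN. On that sum every LPN and EPN library lay below every SPN library, and the 3 libraries of a group lay close together. A sum rests mostly on its most abundant members. Pramel25 averaged 664 CPM in LPN, 1021 CPM in EPN and 1626 CPM in SPN. Pramel51 averaged 841 CPM in LPN, 843 CPM in EPN and 1390 CPM in SPN. Of the 45 tested members, 28 had a positive log2 difference in LPN against SPN, beside 43% of all genes. The sum therefore does not describe most members.

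Later transfer was set against sham transfer first. In LPN, 7 of the 45 tested members differed from SPN at an adjusted p under 0.05 (limma, two-sided, Benjamini-Hochberg over 14876 genes), against 8.8% of all genes tested. Pramel6, Pramel24 and Pramel33 were higher in LPN, beside a background of 3.26% of genes called higher. Pramel32, Pramel25, Pramel27 and Oog1 were lower, beside a background of 5.54% called lower. At an unadjusted p under 0.05 there were 23 members (51.1% of those tested), against 26.9% of all genes. The LPN and SPN libraries did not overlap for 14 members (31.1%), against 27.5% of all genes, a share near the background.

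Pramel32, listed as 2-cell expressed and encoded on chromosome 4, had the smallest adjusted p. It had 143, 143 and 102 CPM in LPN, 228, 289.9 and 207 CPM in EPN, and 328, 384 and 338 CPM in SPN. Each LPN library was below each EPN library, and each EPN library below each SPN library. It was lower in LPN than in SPN, with a log2 difference of -1.44 (SE 0.28, limma adjusted p = 0.00333). This call held under all 19 alternative settings, with adjusted p-values from 0.000864 to 0.0377.

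Pramel25, unclassified and also on chromosome 4, was the member with the largest number of reads after Oog3. It had 923, 667 and 403 CPM in LPN, 1227, 1025 and 811 CPM in EPN, and 1307, 1729 and 1844 CPM in SPN. The LPN and SPN libraries did not overlap, and the lowest SPN library lay above the highest EPN library. The log2 difference of LPN against SPN was -1.35 (SE 0.29, limma adjusted p = 0.00567).

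Oog1, an oogenesin on chromosome 12, had 264, 269 and 202 CPM in LPN, 357, 390.3 and 252 CPM in EPN, and 377, 665 and 614 CPM in SPN. All LPN libraries were below all SPN libraries, while EPN overlapped both. Its log2 difference in LPN against SPN was -1.14 (SE 0.28, limma adjusted p = 0.0138). Of its 150-base transcript stretches, 67.1% occur letter for letter in the predicted gene Gm2042, so reads can be split between both rows and the Oog1 level is uncertain. Gm2042 had 173, 306 and 137 CPM in LPN, 242, 223 and 179 CPM in EPN, and 246, 384 and 509 CPM in SPN.

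Pramel27, unclassified, had 91.9, 110.1 and 27.6 CPM in LPN, 127, 98.4 and 64.2 CPM in EPN, and 214, 116 and 172 CPM in SPN. The groups LPN and SPN came within a few CPM of each other at their nearest libraries. The log2 difference of LPN against SPN was -1.29 (SE 0.39, limma adjusted p = 0.0354), the least secure of the 7 calls, lost in 10 of the 19 alternatives. LPN C was the lowest library for all 4 of the lower members.

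Among the higher members, Pramel6, a neighbour of Pramel7 on chromosome 2 known from the inner cell mass, had 364, 402 and 349.9 CPM in LPN, 193, 289 and 272 CPM in EPN, and 219, 146 and 136 CPM in SPN. Every LPN library exceeded every EPN and SPN library. The log2 difference was 1.18 for LPN against SPN (SE 0.28, limma adjusted p = 0.0107).

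Pramel24, listed as 2-cell expressed, had 685, 587 and 1018 CPM in LPN, 452, 469 and 528 CPM in EPN, and 511, 338 and 292 CPM in SPN. The 3 LPN libraries lay above all others, with LPN C the highest. The log2 difference of LPN against SPN was 1.0 (SE 0.28, limma adjusted p = 0.0260).

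Pramel33, an unclassified member of the chromosome 5 cluster, had 33.7, 57.3 and 96.5 CPM in LPN, 23.6, 22.7 and 47.0 CPM in EPN, and 34.5, 11.9 and 6.12 CPM in SPN. LPN A fell just below SPN A, so these groups overlapped although the mean was higher in LPN. The log2 difference was 1.97 (SE 0.49, limma adjusted p = 0.0129), the widest of the 7 in both size and error.

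**Figure D1:**
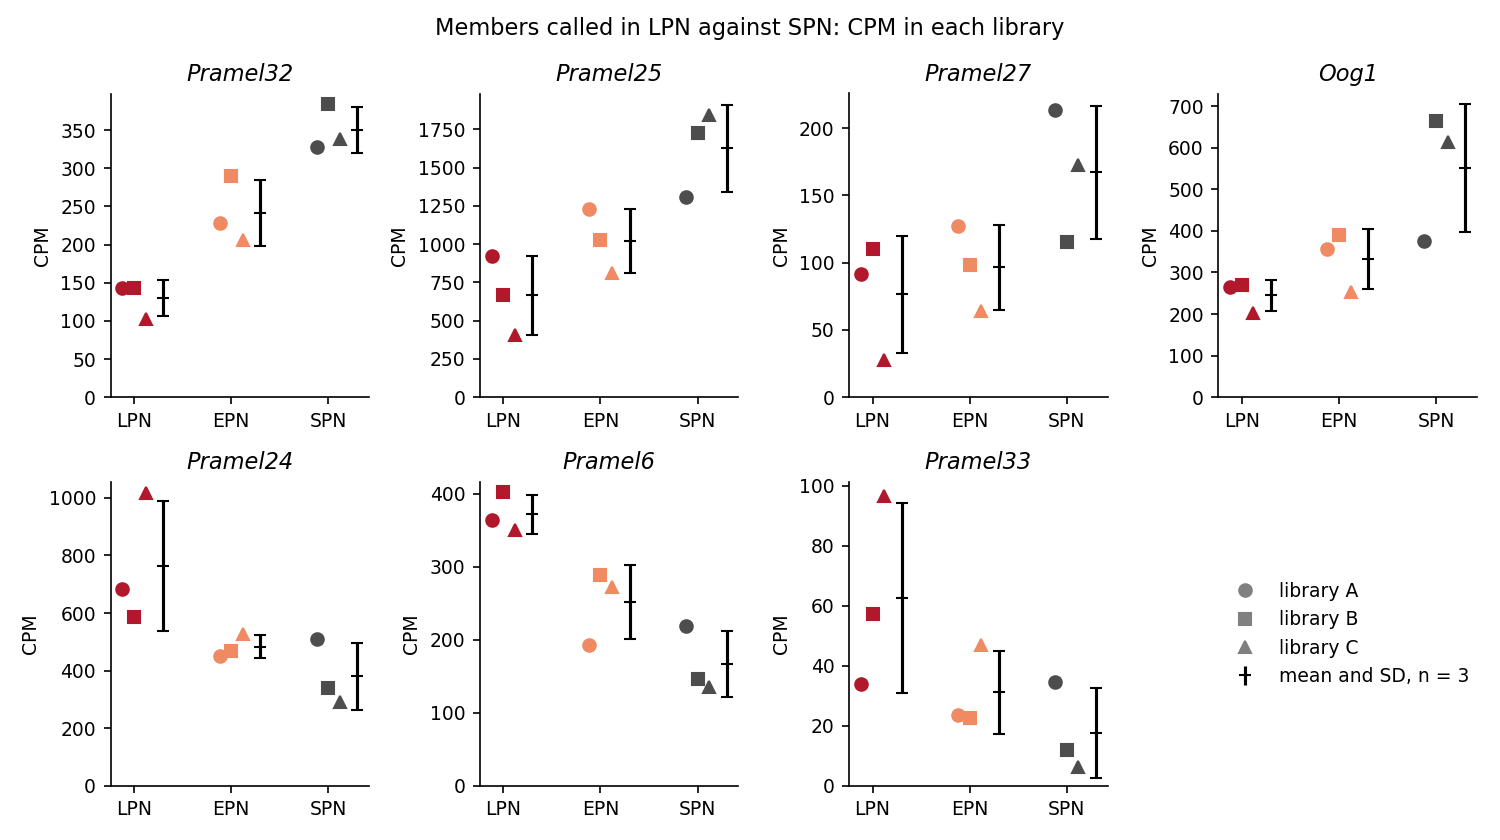
CPM (vertical axis, from 0) of the 7 members called in LPN against SPN, in each of the 9 libraries by group; bars are the mean and SD of 3 libraries. Pramel32, Pramel25, Pramel27 and Oog1 have their lowest means in LPN and their highest in SPN, and Pramel24, Pramel6 and Pramel33 the reverse, with EPN between them.

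Which members were called depended on single libraries. So did the share over all genes, and the member counts are to be read against it. Without SPN C only Pramel32 was called, beside 0.849% of all genes tested. Without SPN B there were 4 members, beside 3.11%, and without LPN C also 4, beside 8.21%. Without SPN A there were 14, of which 10 were higher and 4 lower, beside 18.9% of all genes. After median-of-ratios scaling, which moved the median log2 difference of all genes to -0.03, against -0.17 as deposited, 7 members were called with 5 higher and 2 lower, beside 8.15% of all genes. In that setting Oog1 and Pramel27 were no longer called while Pramel4 and Pramel5 were. Among count models on whole reads, edgeR with TMM called 2 members, Pramel6 and Pramel32, beside 3.21% of all genes. Without TMM, edgeR called 5, beside 5.69%, and DESeq2 called 11, beside 15.3%.

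The sequences just upstream of the called members were set side by side because the 4 lower members differ in listing and in position, with Oog1 on another chromosome than the others. The windows run from 250 bases before to 50 after the annotated start of each gene and come from RefSeq on GRCm38.p6, an older assembly than the one used for the counts. Capitals mark the letters of the TATA box (TATAAA) on either strand, likewise those of the E-box (CANNTG) and of a homeodomain core motif (TAATTG), and matches of different motifs can overlap. Shown first are the 4 lower members, Oog1 (chr12:87602415-87602714, plus strand), Pramel25 (chr4:143789084-143789383, plus strand), Pramel27 (chr4:143846247-143846546, plus strand) and Pramel32 (chr4:88634137-88634436, minus strand).
Oog1: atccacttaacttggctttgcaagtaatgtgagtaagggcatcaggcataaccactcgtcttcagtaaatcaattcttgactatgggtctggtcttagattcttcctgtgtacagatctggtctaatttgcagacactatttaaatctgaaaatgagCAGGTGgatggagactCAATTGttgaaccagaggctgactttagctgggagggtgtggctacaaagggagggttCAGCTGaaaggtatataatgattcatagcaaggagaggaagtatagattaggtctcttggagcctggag
Pramel25: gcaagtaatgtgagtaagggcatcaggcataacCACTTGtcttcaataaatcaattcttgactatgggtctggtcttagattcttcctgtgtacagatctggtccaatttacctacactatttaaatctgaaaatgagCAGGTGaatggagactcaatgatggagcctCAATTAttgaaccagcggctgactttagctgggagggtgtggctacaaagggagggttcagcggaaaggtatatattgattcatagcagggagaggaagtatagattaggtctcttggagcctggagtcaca
Pramel27: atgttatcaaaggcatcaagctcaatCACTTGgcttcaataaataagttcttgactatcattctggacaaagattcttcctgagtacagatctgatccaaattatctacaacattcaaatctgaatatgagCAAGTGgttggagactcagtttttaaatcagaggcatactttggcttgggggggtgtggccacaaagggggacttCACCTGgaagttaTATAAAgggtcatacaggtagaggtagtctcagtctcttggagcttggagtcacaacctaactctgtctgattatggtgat
Pramel32: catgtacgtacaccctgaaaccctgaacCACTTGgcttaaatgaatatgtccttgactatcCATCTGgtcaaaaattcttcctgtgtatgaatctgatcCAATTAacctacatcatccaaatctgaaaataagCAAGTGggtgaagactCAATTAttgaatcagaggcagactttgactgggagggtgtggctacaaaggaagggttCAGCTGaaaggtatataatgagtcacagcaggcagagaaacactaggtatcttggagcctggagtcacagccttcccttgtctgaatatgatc
For comparison, 2 of the higher members are Pramel6 (chr2:87506315-87506614, plus strand) and Pramel24 (chr4:143719201-143719500, plus strand).
Pramel6: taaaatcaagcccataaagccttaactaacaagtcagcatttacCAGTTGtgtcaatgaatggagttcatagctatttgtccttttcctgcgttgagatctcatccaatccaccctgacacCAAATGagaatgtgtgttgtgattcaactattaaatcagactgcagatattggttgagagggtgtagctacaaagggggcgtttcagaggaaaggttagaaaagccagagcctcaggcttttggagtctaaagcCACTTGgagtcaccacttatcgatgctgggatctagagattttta
Pramel24: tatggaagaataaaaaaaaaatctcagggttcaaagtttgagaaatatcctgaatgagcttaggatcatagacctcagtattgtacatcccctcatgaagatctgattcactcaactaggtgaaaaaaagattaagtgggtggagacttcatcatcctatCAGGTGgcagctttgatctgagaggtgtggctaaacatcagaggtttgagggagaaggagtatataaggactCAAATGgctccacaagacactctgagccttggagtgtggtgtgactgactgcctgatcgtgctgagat

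Aligned end to end, the windows of Oog1 and Pramel25 were identical at 84.6% of positions, and those of Pramel27 and Pramel32 at 75.8%. The 6 pairs among the lower members ranged from 63.9% to 84.6% identity, with a median of 68.0%. Such identity was not limited to the called members. Of the 34 members with a window that were not called, 6 matched at least one lower member as closely as the lower members matched each other. These were Pramel29 (85.4% with Pramel25), Oog4 (80.6% with Pramel32), Oog3 (76.4% with Pramel27), Pramel26 (75.6% with Pramel32), Oog2 (75% with Pramel32) and Pramel23 (73.3% with Pramel32). In that order their log2 differences of LPN against SPN were -0.88, 0.38, -0.45, -0.77, -0.82 and 0.18. Any link between likeness of the windows and direction was not tested. Over all 136 pairs of a lower member with one not called the median was 52.7%. The 3 pairs among the higher members ranged from 49.4% to 57.0%, and the 12 pairs of a lower with a higher member from 50% to 60.6%. Over all 820 pairs of the 41 member windows with a RefSeq entry the median was 51.4%. Against 2323 promoters of other genes on chromosome 2 the called members had a median identity of 49.1% and never exceeded 57.1%. Pairs of related genes are not independent of each other, so these are descriptions of the sequences only.

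The E-box letters CANNTG occurred in 38 of the 41 member windows, against 72.3% of all 32851 promoter windows of the same length. TAATTG occurred in 12 of 41, against 8.00% of all, and TATAAA in 14 of 41, against 13.6%. Both were present among called and uncalled members. The homeodomain letters TAATCC occurred in 5 of 41, against 7.06%, and the motif of the 2-cell factor Dux in 0 of 41, against 0.207%. A match gives the letters in this window and no binding.

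The oocyte-stored listing did not move as a block. Of its 5 tested members only Oog1 was called in LPN against SPN, beside 5.54% of all genes called lower. The log2 differences ran from -1.14 to 0.38 with a median of -0.54, beside -0.17 for all genes tested. Of the 5, 1 was positive, beside 43% of all genes. Oog2 had 162, 95.5 and 61.3 CPM in LPN, 109, 85.5 and 90.9 CPM in EPN, and 152, 143 and 243 CPM in SPN. Its log2 difference was -0.82 in LPN against SPN (SE 0.33, limma adjusted p = 0.107). In EPN, all 3 libraries were below the lowest SPN library.

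Oog4 had 121, 109 and 100.3 CPM in LPN, 157, 145 and 100.2 CPM in EPN, and 169, 71.8 and 48.6 CPM in SPN. The control libraries were spread so widely that they took in both other groups. Its log2 difference in LPN against SPN was 0.38 (95% interval -0.33 to 1.1, limma adjusted p = 0.505). Pramel15, linked to the degradation of the DNA methyltransferase DNMT1 in the zygote, was low at 8.02 ± 4.21 CPM in LPN, 14.2 ± 4.98 CPM in EPN and 13.0 ± 8.48 CPM in SPN (SD, n = 3 each). Its ranges overlapped in all groups, and its log2 difference in LPN against SPN was -0.54 (95% interval -1.68 to 0.61, limma adjusted p = 0.570).

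The 5 oocyte-stored members summed to 6762, 6602 and 3941 CPM in LPN, 9062, 7353 and 7373 CPM in EPN, and 11439, 6878 and 6299 CPM in SPN. Nearly all of these reads belong to Oog3, and the highest SPN and the lowest LPN library set most of the distance between the group means.

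All 4 members known from the inner cell mass had a positive log2 difference in LPN against SPN, beside 28 of the 45 members and 43% of all genes. The median was 0.94, beside -0.17 for all genes. Pramel6 was the one that passed the test, beside 3.26% of all genes called higher. In EPN against SPN, 3 of the 4 were positive, Pramel7 was at -0.47, the median was 0.33 and 0 passed. Over all genes in EPN against SPN, 45.5% were positive, the median was -0.07 and 0.108% passed. Pramel4 had 91.9 ± 10.9 CPM in LPN, 69.5 ± 7.42 CPM in EPN and 47.6 ± 21 CPM in SPN (SD, n = 3 each), with a log2 difference of 1.01 in LPN against SPN (limma adjusted p = 0.0546). Pramel5 had 99.8 ± 12.2 CPM in LPN, 56.8 ± 3.73 CPM in EPN and 54.2 ± 3.08 CPM in SPN (SD, n = 3 each), with a log2 difference of 0.86 (limma adjusted p = 0.0755). Both missed the threshold although their LPN and SPN libraries did not overlap. Of the transcript stretches of Pramel4, 82.1% also occur in the predicted gene Gm13102, so its level is uncertain.

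Pramel7, which in pluripotent cells promotes the degradation of UHRF1, had 207, 277 and 357 CPM in LPN, 101, 123 and 172 CPM in EPN, and 157, 250.1 and 144 CPM in SPN. The LPN libraries were all above the EPN libraries but overlapped SPN. Its log2 difference was 0.61 in LPN against SPN (SE 0.30, limma adjusted p = 0.189). The 4 genes summed to 743, 865 and 924 CPM in LPN, 416, 548 and 564 CPM in EPN, and 503, 483 and 372 CPM in SPN, so that the lowest LPN library exceeded the highest of both other groups.

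**Figure D2:**
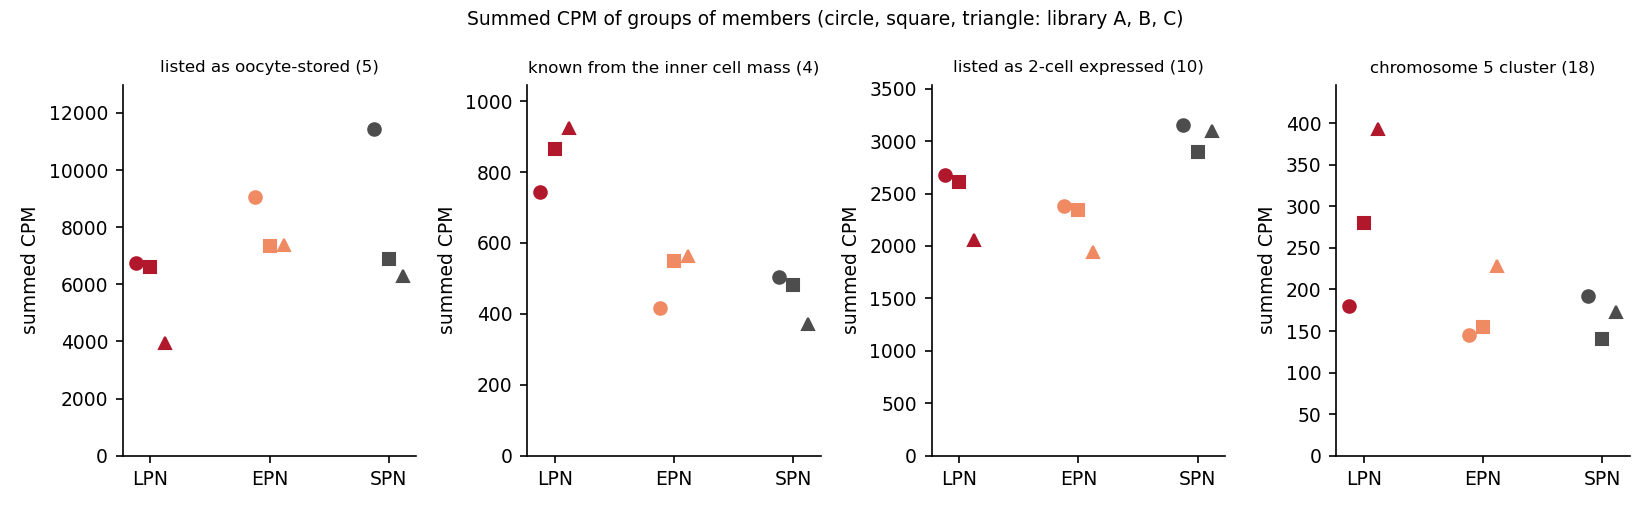
Summed CPM (vertical axis, from 0) in each library for the members listed as oocyte-stored, those known from the inner cell mass, those listed as 2-cell expressed and those on chromosome 5; numbers of genes are in brackets. The inner cell mass members sum to 743 to 924 CPM in LPN, above all EPN and SPN libraries. The oocyte-stored sums in LPN lie below all EPN libraries, and those in SPN overlap both other groups.

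Members listed as 2-cell expressed went both ways in LPN against SPN. The listing rests on older names, and whether their RNA was newly made was not tested. Pramel51, listed here, shared 20.0% of its transcript stretches with Gm2042, which is also the closest gene to Oog1. Of the 9 tested members of this listing, Pramel24 was higher and Pramel32 lower in LPN, and 7 did not pass. Among the 9, 4 differences were positive, and the median was -0.0028. Over all genes tested, 3.26% were called higher, 5.54% lower, 43% were positive and the median was -0.17. The most abundant by reads, Pramel51, had 1014, 1113 and 396 CPM in LPN, 1015, 881 and 632 CPM in EPN, and 1461, 1289 and 1421 CPM in SPN. All LPN and EPN libraries lay below the SPN libraries, and the log2 difference in LPN against SPN was -0.86 (SE 0.31, limma adjusted p = 0.0739). Pramel29 had 612, 429.9 and 177 CPM in LPN, 490.2, 494 and 353 CPM in EPN, and 607, 641 and 747 CPM in SPN, with a log2 difference of -0.88 (SE 0.32, limma adjusted p = 0.0775). LPN C was the lowest library for both genes, and LPN A overlapped SPN for Pramel29.

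The 10 members of this listing summed to 2674, 2614 and 2053 CPM in LPN, 2379, 2342 and 1946 CPM in EPN, and 3157, 2892 and 3093 CPM in SPN. The mean sum was lowest in EPN and highest in SPN, and neither transfer group overlapped SPN. By group means Pramel51 held the largest part of the sum, at 841 CPM in LPN, 843 CPM in EPN and 1390 CPM in SPN. Pramel24, among the 4 of 9 tested members with a positive difference, averaged 763 CPM in LPN, 483 CPM in EPN and 380 CPM in SPN.

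Among abundant unclassified members, Pramel16 had 279, 271 and 757 CPM in LPN, 279.6, 411 and 371 CPM in EPN, and 226, 244 and 172 CPM in SPN. Every LPN and EPN library exceeded the highest SPN library, and the LPN mean rested largely on LPN C. Its log2 differences were 0.86 in LPN (SE 0.32, limma adjusted p = 0.0822) and 0.72 in EPN (SE 0.32, limma adjusted p = 0.400), both against SPN. Pramel17 had 259.6, 275 and 605 CPM in LPN, 218, 327 and 301 CPM in EPN, and 261, 243 and 214 CPM in SPN. LPN C again stood apart, the groups overlapped, and the log2 difference in LPN against SPN was 0.56 (SE 0.30, limma adjusted p = 0.236).

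Of the 23 tested unclassified members, 1 was called higher and 2 lower in LPN against SPN, and 17 differences were positive. Over all genes tested, 3.26% were called higher, 5.54% lower, and 43% had a positive difference. The 4 members listed with the testis were low, with sums of 65.6 to 81.5 CPM in LPN, 66.0 to 174 CPM in EPN and 91.1 to 102 CPM in SPN. The X-linked Pramel3 had 29.9, 15.5 and 9.38 CPM in LPN, 50.2, 9.92 and 69.7 CPM in EPN, and 32.6, 0 and 19.8 CPM in SPN. The SPN library without a Pramel3 read allows up to 0.266 CPM, counting error only.

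Over all 45 tested members the log2 differences of LPN against SPN ran from -1.44 to 1.97. Their median was 0.40, beside -0.17 for all genes, and 28 were positive, beside 43% of all genes. The group means were highest in LPN and lowest in SPN for 16 members, and highest in SPN and lowest in LPN for 10. The remaining members followed the other 4 orders.

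**Figure D3:**
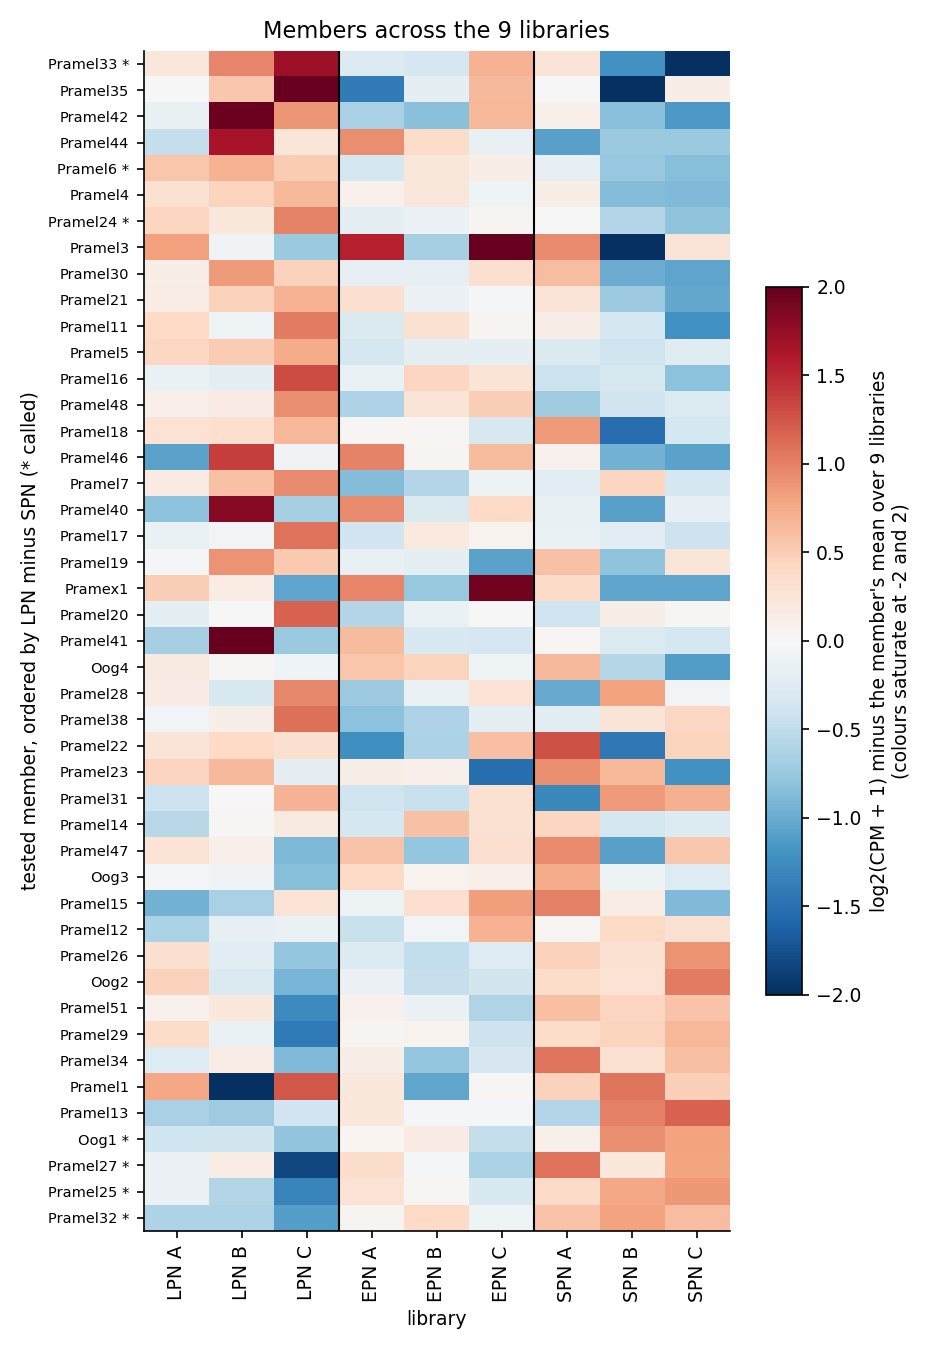
Level of each tested member in each library as log2(CPM + 1) minus the member's mean over 9 libraries (colour, saturating at -2 and 2), ordered from the most positive to the most negative log2 difference of LPN against SPN; asterisks mark the 7 called members. Libraries within a group differ widely for many members, and LPN C has the darkest cells of its group in many rows at both ends.

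The highest and lowest values of a group were not spread evenly over its libraries. LPN C was the highest or the lowest of its group for 38 of 45 members (84.4%), against 71.5% of all genes tested. LPN A was the lowest of its group for 22 members (48.9%), against 33.5% of all genes. SPN A was the highest of its group for 26 members (57.8%), against 27.2% of all genes. The ratio of the highest to the lowest library of a group had a median over members of 2.15 in LPN, 1.69 in EPN and 1.76 in SPN, over members with reads in all 3 libraries.

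Early transfer against sham gave no call among the members. Of the 45 tested, 0 passed in EPN against SPN with limma, beside 0.108% of all genes. The edgeR fits also called 0 members, beside 0% of all genes, and DESeq2 called 0, beside 0.822%. At an unadjusted p under 0.05 there were 11 members (24.4% of those tested), against 11% of all genes. The EPN and SPN libraries did not overlap for 10 members (22.2%), against 14.6% of all genes. The smallest p belonged to Pramel26, with a log2 difference of -0.89 (95% interval -1.51 to -0.27, limma adjusted p = 0.259). This gene is named after its values were seen. The median log2 difference was 0.07 over members and -0.07 over all genes.

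For the members called in LPN, the EPN differences against the same SPN libraries had the same sign. They were -0.55 for Pramel32, -0.68 for Pramel25, -0.79 for Pramel27 and -0.71 for Oog1 on the log2 scale. For the higher members they were 0.60 for Pramel6, 0.38 for Pramel24 and 1.03 for Pramel33, with limma adjusted p-values of 0.346 to 0.644 across all 7. Both comparisons use the same controls, so they are not independent. Without SPN A, Oog1 and Oog4 were called in EPN against SPN, beside 3.14% of all genes.

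**Figure D4:**
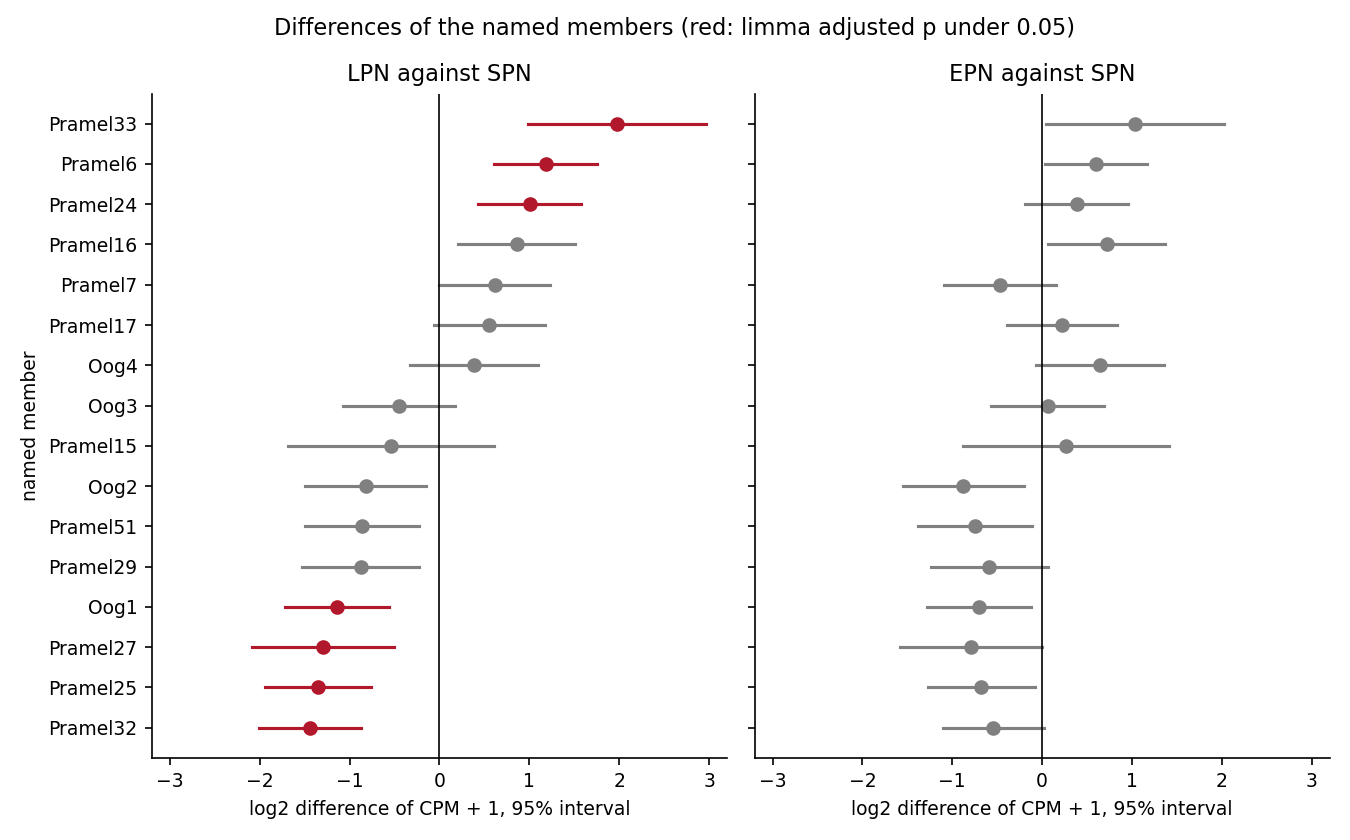
Log2 difference of CPM + 1 (horizontal axis) with its 95% interval for the 16 named members, in LPN against SPN and in EPN against SPN; red marks an adjusted p under 0.05. The 7 red intervals in LPN exclude 0, and for the same genes the EPN estimates lie on the same side of 0 and nearer to it.

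Later was also set directly against early transfer. Of the 45 members, 0 passed in LPN against EPN with limma, beside 1.53% of all genes. There were 9 (20%) at an unadjusted p under 0.05, against 19.3% of all genes. The edgeR fits called 0 and DESeq2 called 3, namely Pramel5, Pramel7 and Pramel38, beside 9.87% of all genes. Pramel7 came nearest the threshold, with 281 ± 75.2 CPM in LPN and 132 ± 36.2 CPM in EPN (SD, n = 3 each) and a log2 difference of 1.083 (SE 0.30, limma adjusted p = 0.0565). Pramel32 followed with -0.90 (SE 0.28, limma adjusted p = 0.0793). The LPN and EPN libraries did not overlap for 11 members (24.4%), against 26.6% of all genes. Over the 3 groups together the F test called 5 members, Pramel6, Pramel25, Pramel32, Pramel33 and Oog1, beside 5.73% of all genes.

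Several members are near copies of other genes, and the files do not say how reads with several matches were counted. For the 40 members matched to GENCODE M21 transcripts, each stretch of 150 bases, the length of a sequencing read, was looked up in the transcripts of all other genes. No stretch was shared by 11 members, among them Pramel6, Pramel7, Pramel24, Pramel32 and Oog4. More than 50% of stretches were shared by 9 members, and 7 of these are on chromosome 5. Pramel25 shared 10.4%, Pramel27 12.8%, Oog3 8.16% and Pramel51 20.0%, and Pramel33 could not be matched. No 2 members had identical values in all 9 libraries.

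On chromosome 5 a median of 71.9% of stretches was shared over the 8 matched members, and Pramel37 and Pramel50 shared 100% of theirs with each other. Single values in this cluster are therefore uncertain, and their sum is given as well. The 18 members summed to 180.0, 279.8 and 393 CPM in LPN, 146, 155 and 228 CPM in EPN, and 193, 140.2 and 173 CPM in SPN. LPN and SPN overlapped, since LPN A lay below SPN A. Of the 11 tested members there, Pramel33 was called higher in LPN, 9 differences were positive and the median was 0.73. Over all genes tested, 3.26% were called higher, 43% were positive and the median was -0.17. Members that share stretches can share reads, so the 9 are not independent of each other. Some rest largely on 1 library. Pramel40 had 1.48, 14.5 and 1.76 CPM in LPN, and Pramel35 had 15.4, 22.7 and 77.6 CPM.

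Genes of the pathway outside the family were read from lists of cullin-2 ligase parts and targets, oocyte reference genes and 2-cell reference genes. In LPN against SPN, 3 of the 19 cullin-2 genes tested were called by limma, all of them lower, beside 5.54% of all genes called lower. These were Klhdc2, Klhdc3 and Fem1b, other substrate receptors of cullin-2 ligases. Fem1b was called at a limma adjusted p of 0.0462, lost in 13 of the 19 alternatives. Klhdc2 averaged 274 ± 6.73 CPM in LPN, 541 ± 111 CPM in EPN and 667 ± 137 CPM in SPN (SD, n = 3 each), with a log2 difference of -1.26 in LPN against SPN (limma adjusted p = 0.00543). Cul2, the scaffold of the ligase, averaged 83.9 ± 14.6 CPM in LPN, 44.7 ± 15.2 CPM in EPN and 49.5 ± 1.96 CPM in SPN and was not called (limma adjusted p = 0.157). Transcripts of the known targets were not called either. The known action is on the proteins of these targets, which were not measured, so their RNA levels do not speak to it. Dnmt1 averaged 33.2 ± 14.8 CPM in LPN, 50.8 ± 8.19 CPM in EPN and 42.8 ± 20.7 CPM in SPN, and Uhrf1 averaged 12.2 ± 5.67 CPM in LPN, 17.5 ± 0.39 CPM in EPN and 26.2 ± 19.7 CPM in SPN. The median log2 difference of the list was -0.53, beside -0.17 for all genes.

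Of the 25 oocyte reference genes tested, 7 were lower and 1, the zona pellucida gene Zp3, was higher in LPN against SPN, beside 5.54% of all genes called lower and 3.26% called higher. Bcl2l10, an oocyte relative of BCL2, averaged 512 ± 146 CPM in LPN, 1079 ± 86.7 CPM in EPN and 1573 ± 376 CPM in SPN, with a log2 difference of -1.63 (limma adjusted p = 0.00145). Gdf9, a growth factor of the oocyte, averaged 61.9 ± 9.62 CPM in LPN, 107 ± 26.9 CPM in EPN and 159.9 ± 39.4 CPM in SPN, with a log2 difference of -1.34 (limma adjusted p = 0.0096). The median log2 difference of the list was -0.73, beside -0.17 for all genes.

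Of the 23 genes of the 2-cell reference list tested, 8 were called in LPN against SPN, all of them higher, beside 3.26% of all genes called higher. The other 15 were not called, 20 of the 23 differences were positive, and the median was 0.97, beside -0.17 for all genes. The list holds several genes each of the Zscan4, Usp17l and Eif1ad families, and shared stretches were not looked up for them. Reads may be split between such genes, so the calls are not independent of each other. The list was also chosen with earlier results of these data known. Eif1ad7 averaged 824 ± 227 CPM in LPN, 562 ± 163 CPM in EPN and 238 ± 37.3 CPM in SPN, with a log2 difference of 1.76 (limma adjusted p = 0.000985). Zfp352, a zinc finger gene of the 2-cell stage, averaged 813 ± 236 CPM in LPN, 655 ± 52.9 CPM in EPN and 379 ± 156 CPM in SPN, with a log2 difference of 1.13 (limma adjusted p = 0.0152). Zscan4d averaged 706 ± 216 CPM in LPN, 621 ± 327 CPM in EPN and 369 ± 180.4 CPM in SPN and was not called (limma adjusted p = 0.0593). Early transfer against sham gave 0 limma calls in the 3 lists, while 2 cullin-2 genes, 5 oocyte genes and 15 of the 23 genes of the 2-cell list had an unadjusted p under 0.05, beside 11% of all genes. There the edgeR fits also called 0, DESeq2 called 1 gene of the 2-cell list, and the median log2 difference of that list was 0.76, beside -0.07 for all genes. In LPN against SPN without SPN C, 0 genes of the cullin-2 list, 2 of the oocyte list and 3 of the 2-cell list were called, beside 0.849% of all genes. Without LPN B these counts were 1, 5 and 7, beside 2.2% of all genes, and without SPN A they were 4, 8 and 15, beside 18.9%. In EPN against SPN without SPN A they were 2, 3 and 10, beside 3.14%.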

How the data were processed

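PolyA RNA of pooled embryos was made into Smart-seq2 v4 cDNA and Nextera XT libraries and sequenced as 150-bp paired ends, per the labels. The submitters' processing notes list GRCm39, HISAT2 2.2.1, Trim Galore 0.6.7, edgeR and R 3.3.3, with no read counter. CPM of 19359 genes were used as the authors deposited them. In each library 100% of values came out as whole reads within 0.01 reads, and 3.66% to 5.68% of the total lay outside the table. Limits for a count of 0 (3 reads) cover counting error only.

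All 9 libraries entered 1 limma fit (limma 3.58.1, R 4.3.3, trend-adjusted empirical Bayes) on log2(CPM + 1), which understates changes of low genes. It covered the 14876 genes that reached 1 CPM in 3 or more libraries, with Benjamini-Hochberg adjustment over all of them, and was checked on simulated data. Alternatives used edgeR 4.0.16 and DESeq2 1.42.0 on whole reads, other pseudocounts, filters and scaling, and left out each library. Members and lists were chosen with earlier results of these data known, and the sorting of members rests on general knowledge. Named with values are called members, the 10 of highest mean CPM, the oogenesins, Pramel6, Pramel7 and Pramel15. Pramel3, Pramel4, Pramel5, Pramel26, Pramel35 and Pramel40 were added after their values were seen. Of each outside list, up to 4 called genes and a few fixed ones are named. Promoters came from RefSeq (GRCm38.p6). Of the 40 members matched to GENCODE M21, 10 matched by symbol, 28 by synonym and 2 by accession.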

Additional observations from a re-analysis of the deposited data

How the results depend on the processing

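Of the member calls in LPN against SPN, Pramel32 held under all 19 alternatives, Pramel25 was lost in 2, Pramel6 in 3, Oog1 in 4, Pramel33 in 6, Pramel24 in 7 and Pramel27 in 10; no called value changed sign. The share of all genes called moved with the settings too and is given in brackets. Against 7 members called in LPN against SPN (8.8%), there were 4 with no filter on low values (2.57%), 2 with edgeR and TMM scaling (3.21%) and 11 with DESeq2 (15.3%). With single libraries left out there were 1 to 14, with 1 without SPN C (0.849%), 4 without SPN B (3.11%), 4 without LPN C (8.21%) and 14 without SPN A (18.9%). In EPN against SPN the count was 0 to 2 over left-out libraries, with 2 without SPN A (3.14%). In LPN against EPN, against 0 calls (1.53%), it was 1 with genes of a mean of at least 5 CPM (4.02%), 1 with only the 6 libraries compared (3.12%), 3 with DESeq2 (9.87%), and 0 to 2 over left-out libraries (2 without SPN A, 5.41%). The F test, with 5 calls (5.73%), gave 3 with a pseudocount of 0.1 CPM (3.67%), 0 with no filter (0%), 3 with median-of-ratios scaling (5.03%), 0 with edgeR and TMM (0.739%), 1 with edgeR without TMM (1.61%), 9 with DESeq2 (17.7%), and 1 to 15 over left-out libraries (15 without SPN A, 17.6%). The cause of these shifts was not tested.

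The labels do not say whether the letters A, B and C pair the libraries. Deviations of same-letter libraries from their group means correlated at -0.024 to 0.092, with 0 of 9 pairs over 0.1. Correlations this small cannot settle whether the letters pair the samples. With the replicate letter as a block, 9 members were called in LPN against SPN (11.1%) and 0 in EPN against SPN (0.168%). There were 2 in LPN against EPN (3.23%) and 8 by the F test (8.44%). Each of these shares of all genes was higher than without the block. Counts for the lists outside the family under these settings were added after seeing the data. Members with few reads or with near copies, most of those on chromosome 5, are where depth and read assignment limit the values most.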
